A study of Mus musculus with 10 samples.

Results

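The 7 genes described here encode the enzymes that build and break down liver glycogen and 2 of the subunits that bring protein phosphatase to it. They were taken by name, as Ugp2, Gyg, Gys2, Gbe1, Pygl, Ppp1r3b and Ppp1r3c, from a table of 18869 gene identifiers, and all 7 were present. The libraries came from livers of C57BL/6 mice at the age of 6 weeks, 5 wild-type (WT) and 5 labelled Nrf2Act-hep, whose label gives NRF2 activation specific to the liver. All mice ate regular chow and were fasted for 15 h before harvest, so that each level is that of a fasted liver. The labels name neither the construct that activates NRF2 nor the promoter that drives it. Of the WT libraries, replicates 1 and 2 have the letter M in their title and replicates 3 to 5 the letter F, and among the Nrf2Act-hep libraries 6 to 8 are M while 9 and 10 are F. The letters matched the sex-linked transcripts, with Xist at 0 CPM in the 5 M libraries and at 331.8 to 560.3 CPM in the 5 F libraries. As no label ties a library to a separate mouse, the spread behind each p-value is that between libraries and may be technical in part.

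Glycogen is the branched glucose store of the liver, filled after meals and drawn on in fasting. UGP2 makes UDP-glucose, the activated sugar. Glycogenin (GYG) primes a new chain, glycogen synthase (GYS2 in liver) lengthens it and the branching enzyme GBE1 adds branch points. Glycogen phosphorylase (PYGL in liver) releases glucose units from the chain ends. The subunits PPP1R3B and PPP1R3C hold protein phosphatase 1 on the glycogen particle, where it activates the synthase and switches off the phosphorylase. NRF2 activates genes of the antioxidant defence, and Gbe1 has been described as one of its targets in mouse skeletal muscle.

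The assay sequences 1 tag from the 3′ end of a polyadenylated transcript, so a value does not grow with transcript length. Values are CPM, in which reads are divided by the library total, after TMM scaling, which corrects for differences in composition between libraries. The libraries held 1267745 to 2287727 reads in WT and 2167528 to 2806670 in Nrf2Act-hep, and 3 reads corresponded to 1.31 to 2.37 CPM and to 1.07 to 1.38 CPM. The mitochondrial ribosomal RNAs took 22.4 to 27.5% of the reads in WT and 19.2 to 22.9% in Nrf2Act-hep. Hepatocyte markers were abundant in every library, and their sum over 5 genes was lower in Nrf2Act-hep (29272 to 38428 CPM) than in WT (39443 to 47893 CPM), with 1 of the 5, Apoa1, called lower and 0 higher. Alb and Apoa1 made up most of that sum. On the log2 scale the fold changes of Apoa1 (-0.77), Alb (-0.43, limma adjusted p = 0.080) and Ttr (-0.13) were below 0. Those of Cps1 (0.10) and Tat (0.21) were above 0 without passing the test. Of 29 measured markers in 6 lists of other liver and blood cells 22 were tested and 0 were called, and the summed levels overlapped between genotypes in each list. The measured skeletal muscle markers summed to at most 1.27 CPM in any library and the measured adipocyte markers to at most 2.51 CPM. In a whole liver, a change in the share of a cell type and a change in RNA per cell cannot be told apart.

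The enzymes that make and branch the chain did not move as a block. Gbe1 and Ugp2 rose in Nrf2Act-hep, Gys2 and Pygl did not pass the test, and Gyg was close to the limit of detection. Of the 6 members with enough reads to be tested, 2 were called higher and 0 lower, where 4.64% of all 8075 tested genes were called in either direction and 2.79% were called higher and 1.86% lower. The median log2 fold change of the 6 members was -0.06, beside 0.0051 over all tested genes. Gyg did not pass the filter, so the count says nothing of it. The members are few and were chosen with earlier results of these data known. The count was therefore not read as a result about the members as a set.

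Gbe1 (ENSMUSG00000022707; chromosome 16, 70313949 to 70569716, plus strand, GRCm38), the branching enzyme gene, was the most strongly changed member by p-value. The WT libraries, replicates 1 to 5, stood at 62.2, 94.6, 87.2, 85.9 and 51.7 CPM. The Nrf2Act-hep libraries, replicates 6 to 10, stood at 146.9, 149.6, 161.3, 133.5 and 163.8 CPM. Each Nrf2Act-hep library thus lay above every WT library, which was true in the same direction of 3.05% of all tested genes. Mean levels were 76.3 ± 18.4 and 151.0 ± 12.2 CPM (SD, n = 5 each), from 606 and 1867 reads. The log2 fold change was 1.00 ± 0.15 (SE; limma, adjusted p = 0.00014; higher in 5 of 5 libraries), a 1.99-fold difference with a 95% interval of 1.61 to 2.47. Gbe1 was rank 65 of the 8075 genes by p-value and rank 91 by fold change among the 225 genes called higher.

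Ugp2 (ENSMUSG00000001891; chromosome 11, 21321138 to 21371201, minus strand), which supplies UDP-glucose, was the other member that rose. Its WT libraries stood at 198.7, 213.4, 102.5, 166.6 and 119.4 CPM, the first pair being the M libraries. Its Nrf2Act-hep libraries stood at 260.5, 265.8, 295.7, 262.3 and 219.2 CPM. The groups did not overlap, although the gap between the highest WT library and the lowest Nrf2Act-hep library was narrow. Mean levels were 160.1 ± 48.3 and 260.7 ± 27.3 CPM (SD, n = 5 each), from 1265 and 3236 reads. The log2 fold change was 0.66 ± 0.14 (SE; limma, adjusted p = 0.0056; higher in 5 of 5 libraries), a 1.58-fold difference with a 95% interval of 1.29 to 1.94. An antisense transcript, Gm12043, overlaps the start of Ugp2, and it had 1 read in all libraries together.

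**Figure D1:**
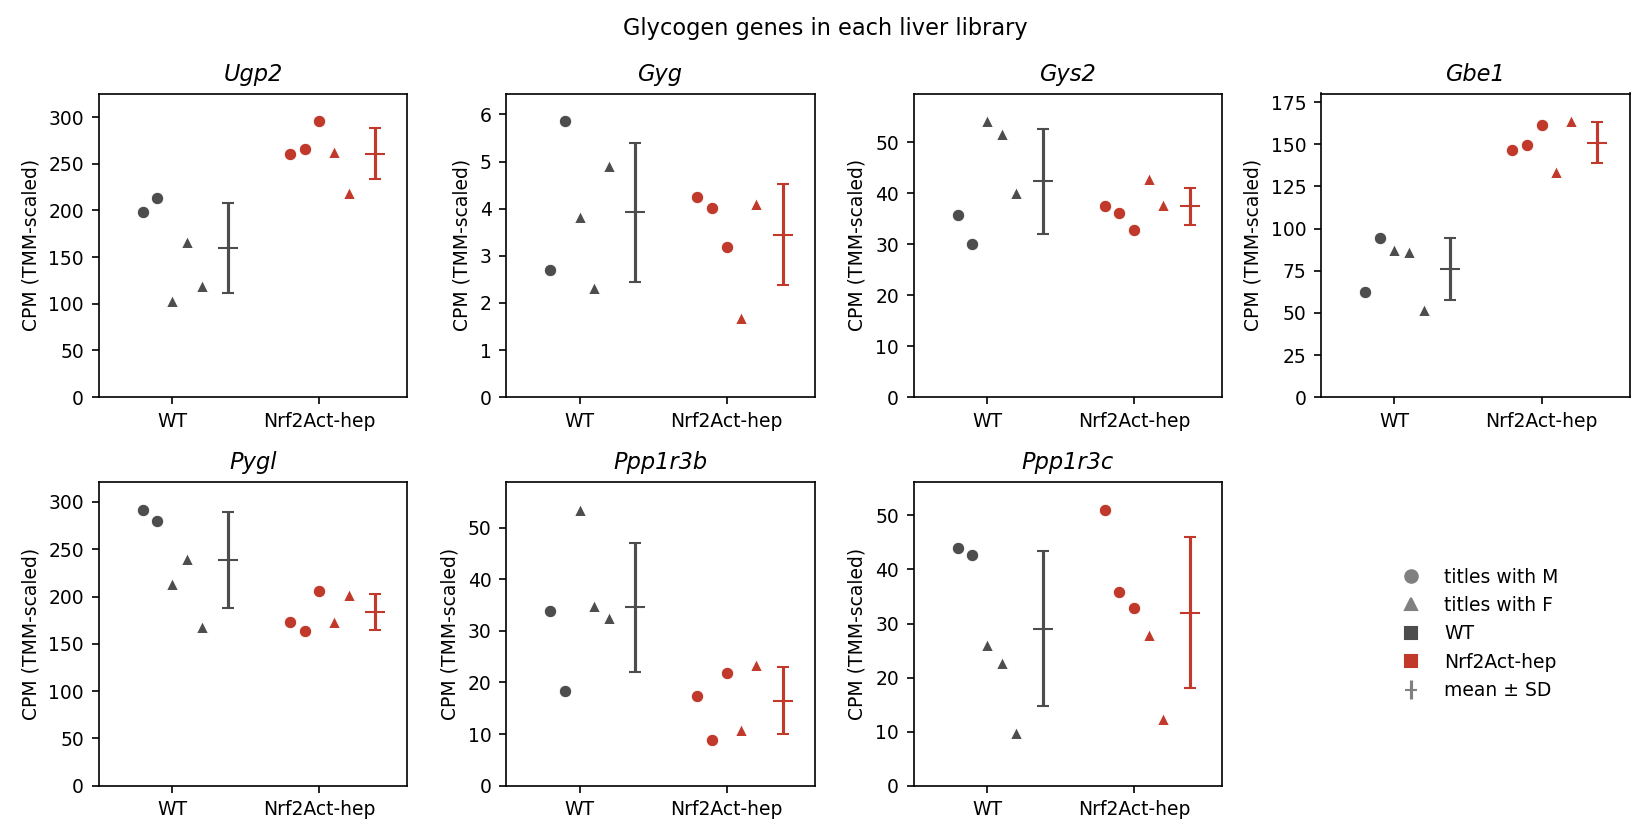
TMM-scaled CPM of the 7 genes in each library, with WT in grey, Nrf2Act-hep in red, circles for M and triangles for F titles, and bars for the mean ± SD of 5 libraries. The 5 Nrf2Act-hep libraries lie above every WT library for Gbe1 (133.5 to 163.8 against 51.7 to 94.6 CPM) and Ugp2 (219.2 to 295.7 against 102.5 to 213.4 CPM), and the groups overlap for the other 5 genes.

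Sequence upstream of the start site is shown for these genes because both were called higher and Gbe1 is a described NRF2 target. RefSeq promoter windows on GRCm38.p6 were found for 5 of the 7 members (6 windows, Ugp2 having 2 starts), and Gys2 and Ppp1r3b had none. The 250 bases before each start are read 5′ to 3′ on the gene's strand, at chr16:70313699-70313948 for Gbe1 and at chr11:21371268-21371517 (upstream start) and chr11:21370630-21370879 (downstream start) for Ugp2. Capitals mark matches, on either strand, to the E-box CACGTG, the CCAAT box CCAAT, the GC box GGGCGG, the cAMP response element TGACGTCA or the core of the antioxidant response element TGACNNNGC, to which NRF2 binds. 
Gbe1: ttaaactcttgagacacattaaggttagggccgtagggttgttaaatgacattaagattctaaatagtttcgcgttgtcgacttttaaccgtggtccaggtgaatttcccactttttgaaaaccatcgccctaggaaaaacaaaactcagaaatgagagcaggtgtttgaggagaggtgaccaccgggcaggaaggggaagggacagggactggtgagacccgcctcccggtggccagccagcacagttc
Ugp2 upstream start: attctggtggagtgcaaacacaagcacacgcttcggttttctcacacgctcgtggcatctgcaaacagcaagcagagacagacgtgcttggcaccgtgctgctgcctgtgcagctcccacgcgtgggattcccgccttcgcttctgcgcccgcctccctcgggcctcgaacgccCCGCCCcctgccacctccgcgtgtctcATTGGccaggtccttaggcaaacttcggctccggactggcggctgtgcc
Ugp2 downstream start: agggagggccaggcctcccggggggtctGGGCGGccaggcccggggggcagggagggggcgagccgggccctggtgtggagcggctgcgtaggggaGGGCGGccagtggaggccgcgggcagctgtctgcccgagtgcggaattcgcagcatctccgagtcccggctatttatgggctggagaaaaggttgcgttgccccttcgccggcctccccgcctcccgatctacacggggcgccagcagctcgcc

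The antioxidant response element core was not found in any of the 6 windows, and 10.2% of all 32851 windows of this length held it. The Gbe1 window held none of the 5 motifs. The upstream Ugp2 window held a GC box and a CCAAT box, and the downstream one 2 GC boxes. Among members that were not called, the Pygl and Gyg windows also held GC boxes and the Ppp1r3c window a CCAAT box. The bases G and C made up 64.0% of the upstream and 73.6% of the downstream Ugp2 window. The median over all windows was 52.4%. GC boxes occurred in 32.7% and CCAAT boxes in 33.9% of all windows. The Ppp1r3c window was the one member window with an E-box, a motif found in 6.02% of all windows. The element core and the cAMP response element begin with the same letters, TGAC, and neither was present here. These are matches of letters in a short window, and they say nothing of sites farther away.

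Gys2 (ENSMUSG00000030244; chromosome 6, 142422613 to 142473109, minus strand), the liver glycogen synthase, showed no difference that passed the test. The WT libraries stood at 35.8, 30.1, 54.1, 51.7 and 40.1 CPM, and the Nrf2Act-hep libraries at 37.5, 36.2, 32.8, 42.7 and 37.8 CPM. All 5 Nrf2Act-hep libraries lay inside the WT range. The log2 fold change was -0.08 ± 0.14 (SE; limma, adjusted p = 0.85), and the 95% interval of the fold was 0.775 to 1.16. Without TMM the sign turned, to 0.05, and the call was the same.

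Gyg (ENSMUSG00000019528; chromosome 3, 20122084 to 20155317, minus strand), the glycogenin gene, had 4 to 11 reads per library. The WT mean was 3.92 ± 1.48 CPM and the Nrf2Act-hep mean 3.45 ± 1.07 CPM (SD, n = 5 each), with 32 and 42 reads in all. The difference was within the spread between libraries (exact two-sided permutation p = 0.60, where 0.0079 is the smallest that 5 against 5 allow). No difference in Gyg was seen, and with so few reads per library a small one could have been missed.

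Pygl (ENSMUSG00000021069; chromosome 12, 70190811 to 70231488, minus strand), the phosphorylase of the liver, had a fold change below 0 that did not pass the threshold. The WT libraries stood at 291.9, 280.4, 213.3, 239.2 and 167.9 CPM, and the Nrf2Act-hep libraries at 173.3, 163.2, 206.0, 173.2 and 201.9 CPM. WT replicate 5 lay within the Nrf2Act-hep range, and the other WT libraries lay above it. The log2 fold change was -0.40 ± 0.14 (SE; limma, adjusted p = 0.11, unadjusted p = 0.0079), with a 95% interval of the fold of 0.624 to 0.923. Without WT replicate 5 the value was -0.49 and passed (limma, adjusted p = 0.036), and over the fits without 1 library the adjusted p ran up to 0.34.

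In the order of tag levels, Pygl led in WT (mean 238.5 CPM), ahead of Ugp2 and Gbe1, while in Nrf2Act-hep Ugp2 (260.7 CPM) stood above Pygl (183.5 CPM) and Gbe1 (151.0 CPM). Gys2, Ppp1r3b and Ppp1r3c were between 16.5 and 42.4 CPM in both genotypes, and their library values overlapped one another in WT. Priming can differ between genes, so small gaps between genes were not read as differences in transcript number.

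Ratios of reads within a library do not depend on the scaling between libraries. The ratio of Ugp2 to Pygl reads was 0.681, 0.761, 0.481, 0.697 and 0.711 in WT and 1.50, 1.63, 1.44, 1.51 and 1.09 in Nrf2Act-hep. Ugp2 had fewer reads than Pygl in all 5 WT libraries and more in all 5 Nrf2Act-hep libraries. The ratio of Gbe1 to Pygl reads was 0.213 to 0.409 in WT and 0.771 to 0.916 in Nrf2Act-hep, without overlap. The ratio of Gbe1 to Gys2 reads was 1.29 to 3.14 in WT and 3.13 to 4.92 in Nrf2Act-hep, where WT replicate 2 lay just above Nrf2Act-hep replicate 9. The ratio of Gys2 to Pygl reads had medians of 0.216 and 0.216, with ranges of 0.107 to 0.254 in WT and 0.159 to 0.247 in Nrf2Act-hep. The ratio of Ugp2 to Gys2 reads overlapped between genotypes, at 1.89 to 7.08 in WT and 5.80 to 9.01 in Nrf2Act-hep, as did that of Ppp1r3c to Ppp1r3b, at 0.301 to 2.32 and 0.526 to 4.05. These ratios are descriptions and were not tested.

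**Figure D2:**
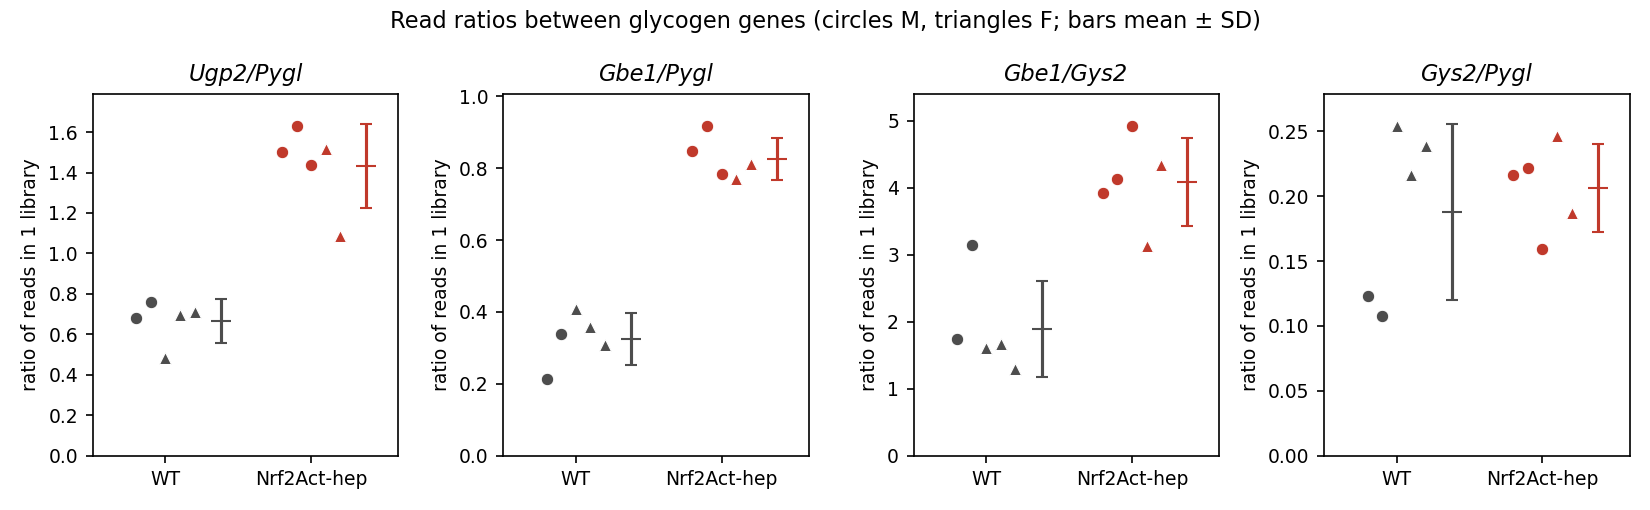
Ratio of the reads of 2 genes in each library, for 4 pairs, with WT in grey, Nrf2Act-hep in red, circles for M and triangles for F titles, and bars for the mean ± SD of 5 libraries. The genotypes are apart for Ugp2 to Pygl (0.481 to 0.761 against 1.09 to 1.63) and Gbe1 to Pygl (0.213 to 0.409 against 0.771 to 0.916), touch for Gbe1 to Gys2, and overlap for Gys2 to Pygl.

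The 2 phosphatase-targeting subunits come next, and neither passed the test for genotype. Ppp1r3b (ENSMUSG00000046794; chromosome 8, 35375739 to 35388139, plus strand), which encodes the subunit GL, had WT libraries at 33.8, 18.4, 53.5, 34.8 and 32.5 CPM. Its Nrf2Act-hep libraries stood at 17.5, 8.85, 21.9, 10.8 and 23.4 CPM. WT replicate 2 lay inside the Nrf2Act-hep range, and 3 of the 5 Nrf2Act-hep libraries lay below every WT library. The log2 fold change was -0.97 ± 0.29 (SE; limma, adjusted p = 0.085, unadjusted p = 0.0050), with a 95% interval of the fold of 0.331 to 0.785. The value passed with DESeq2 (adjusted p = 0.012), and by limma without WT replicate 2 (-1.20, adjusted p = 0.030) or without Nrf2Act-hep replicate 8 (-1.12, adjusted p = 0.025), and the adjusted p ran up to 0.23 over the fits without 1 library. It rested on 289 reads in WT and 200 in Nrf2Act-hep.

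Ppp1r3c (ENSMUSG00000067279; chromosome 19, 36731731 to 36736653, minus strand), which encodes the subunit called protein targeting to glycogen, stood higher in M than in F libraries of both genotypes. The WT libraries stood at 43.9 and 42.7 CPM in M and at 26.1, 22.6 and 9.80 CPM in F. The Nrf2Act-hep libraries stood at 51.1, 35.8 and 32.8 CPM in M and at 27.9 and 12.3 CPM in F. Every M library was above every F library in either genotype, and Gys2 showed such a split in the other direction. The share of all tested genes with such a split by letter was not counted. For genotype the log2 fold change was -0.05 ± 0.27 (SE; limma, adjusted p = 0.96), with a 95% interval of the fold of 0.650 to 1.44, and without TMM the sign turned, to 0.08. For the letter the log2 fold change, F minus M, was -1.13 ± 0.27 (SE; limma, adjusted p = 0.069), which just missed the threshold.

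The letter comparison called 0 of the 6 tested members, where 1.16% of all tested genes were called. Ppp1r3c passed it with DESeq2 (adjusted p = 0.0041), without TMM (adjusted p = 0.039), with a pseudocount of 4 (adjusted p = 0.045) and with no filter (adjusted p = 0.028). By limma it also passed with 1 of 3 of the F libraries left out, with an adjusted p = 0.0053 when this was Nrf2Act-hep replicate 9, and 0.043 and 0.021 for WT replicates 3 and 5. The largest of the other letter differences, F minus M, were -0.44 ± 0.14 for Ugp2 (SE; limma, adjusted p = 0.19), 0.36 ± 0.14 for Gys2 (adjusted p = 0.33) and 0.35 ± 0.29 for Ppp1r3b (adjusted p = 0.75). In WT the M libraries were above the F libraries for Ugp2 (198.7 and 213.4 against 102.5 to 166.6 CPM) and for Pygl (280.4 and 291.9 against 167.9 to 239.2 CPM), and in Nrf2Act-hep the letters overlapped for both genes. Gys2 went the other way, with F libraries above M libraries in both genotypes. Its ranges in F and M were 40.1 to 54.1 and 30.1 to 35.8 CPM in WT. In Nrf2Act-hep they were 37.8 to 42.7 and 32.8 to 37.5 CPM.

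Because the letters are unevenly spread over the genotypes, the genotype difference was also fitted within each. Gbe1 had log2 fold changes of 0.98 ± 0.18 in M (SE; limma, adjusted p = 0.0022) and 1.01 ± 0.23 in F (adjusted p = 0.032). Ugp2 had 0.41 ± 0.15 in M (adjusted p = 0.19) and 0.91 ± 0.21 in F (adjusted p = 0.040), so the call of Ugp2 was lost in the 5 M libraries alone. Pygl had -0.67 ± 0.16 in M (adjusted p = 0.022) and -0.13 ± 0.20 in F (adjusted p = 0.88). Ppp1r3b had -0.69 ± 0.33 in M (adjusted p = 0.34) and -1.25 ± 0.31 in F (adjusted p = 0.067). The sign differed between the letters for Gys2 and Ppp1r3c, and neither passed in either letter. Gys2 had 0.11 ± 0.20 in M (adjusted p = 0.86) and -0.26 ± 0.21 in F (adjusted p = 0.73). Ppp1r3c had -0.14 ± 0.21 in M (adjusted p = 0.81) and 0.04 ± 0.43 in F (adjusted p = 0.98).

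The difference between the letters was tested itself by the interaction of genotype and letter. It called 0 of the 6 members (limma; 0 with edgeR, DESeq2 and limma-voom) and 0.0248% of all tested genes. By limma, 1 of the 6 members had an unadjusted p under 0.05, as had 576 of all 8075 tested genes. The interaction, F minus M, was 0.54 ± 0.25 for Pygl (SE; limma, adjusted p = 0.69, unadjusted p = 0.045), 0.51 ± 0.27 for Ugp2 (adjusted p = 0.75) and 0.03 ± 0.31 for Gbe1 (adjusted p = 0.99). Each letter held 2 libraries of one genotype and 3 of the other.

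**Figure D3:**
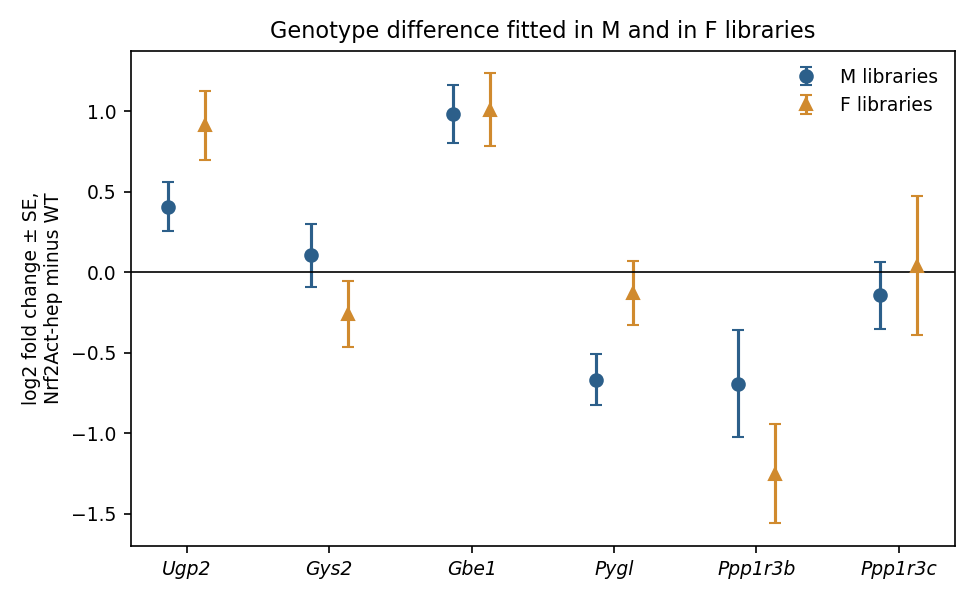
Log2 fold change, Nrf2Act-hep minus WT, ± SE, fitted by limma in the 5 M libraries (circles) and in the 5 F libraries (triangles) for the 6 tested members. Gbe1 has nearly the same value in both (0.98 and 1.01), while Ugp2 (0.41 and 0.91) and Pygl (-0.67 and -0.13) differ between them by amounts that did not pass the interaction test.

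The neighbouring genes of glycogen metabolism were read from 6 lists holding 54 genes, of which 53 were in the table and 32 were tested. Of these, 2 were called higher and 0 lower, where 2.79% of all 8075 tested genes were called higher and 1.86% lower. The median log2 fold change was 0.02. With so few genes tested, neither this count nor those of the single lists below was read as a result about the lists. The called genes were Ugdh and Prkaa2. Ugdh, which oxidises the UDP-glucose made by UGP2 to UDP-glucuronate, went from 41.8 ± 7.80 to 139.6 ± 34.3 CPM (SD, n = 5 each; log2 fold change 1.64 ± 0.15, SE; limma, adjusted p = 1.27e-07; higher in 5 of 5 libraries). Prkaa2, the alpha2 catalytic subunit of AMP-activated kinase, which phosphorylates glycogen synthase, went from 54.0 ± 9.62 to 90.3 ± 14.8 CPM (0.68 ± 0.13; limma, adjusted p = 0.0024; higher in 5 of 5 libraries).

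Of the 6 tested users of UDP-glucose, 1 was called, Ugdh, and the median was 0.11. Galk1, a galactose kinase of the pathway that exchanges UDP-glucose, stood at 39.6 ± 4.02 and 40.2 ± 4.60 CPM. Of the 10 genes in the list of kinases, which includes regulatory subunits, 1 was called, Prkaa2, and the median was 0.05. The regulatory subunits of protein kinase A, Prkar2a (0.02 ± 0.11) and Prkar1a (0.01 ± 0.12), had 95% intervals of -0.22 to 0.25 and -0.23 to 0.25 on the log2 scale.

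Of the 4 tested genes among 11 other glycogen enzymes and storage proteins, 0 were called. Pgm1, a phosphoglucomutase that supplies UGP2 with its substrate, stood at 103.7 ± 15.1 and 121.3 ± 13.8 CPM (0.19 ± 0.12; limma, adjusted p = 0.48). Stbd1, a glycogen-binding protein, stood at 22.8 ± 8.93 and 29.2 ± 5.67 CPM (0.27 ± 0.16; limma, adjusted p = 0.43). The synthase of muscle, Gys1, and the phosphorylase of muscle, Pygm, had 15 and 7 reads in all libraries together, and neither was tested.

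Of the 6 tested phosphorylase kinase subunits and of the 2 tested phosphatase subunits, 0 were called, and their medians were -0.07 and 0.10. Calm2 (-0.11 ± 0.12), a calmodulin gene whose protein is a subunit of phosphorylase kinase, and the phosphatase catalytic genes Ppp1cb (0.24 ± 0.19) and Ppp1ca (-0.03 ± 0.16) did not pass. Of the 4 tested genes of glucose entry and release, 0 were called for genotype, with a median of -0.30. G6pc, the phosphatase that releases free glucose, stood at 341.5 ± 125.1 and 222.0 ± 110.8 CPM (-0.51 ± 0.17; limma, adjusted p = 0.13), and it was the gene of these lists called for the letter (F minus M 0.86; limma, adjusted p = 0.016). The glucose transporter Slc2a2 stood at 293.3 ± 44.0 and 239.8 ± 37.1 CPM (-0.32 ± 0.13; limma, adjusted p = 0.21).

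Of all members and listed genes in the table, 22 fell below the filter, and the 18 with at least 10 reads were compared 1 by 1 with an exact two-sided permutation test, of which 2 had an unadjusted p under 0.05. One of them was G6pc3, a glucose phosphatase (9 reads in WT and 29 in Nrf2Act-hep; means of 1.14 and 2.33 CPM; exact permutation p = 0.024). With 18 such comparisons and few reads, this is not a call.

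**Figure D4:**
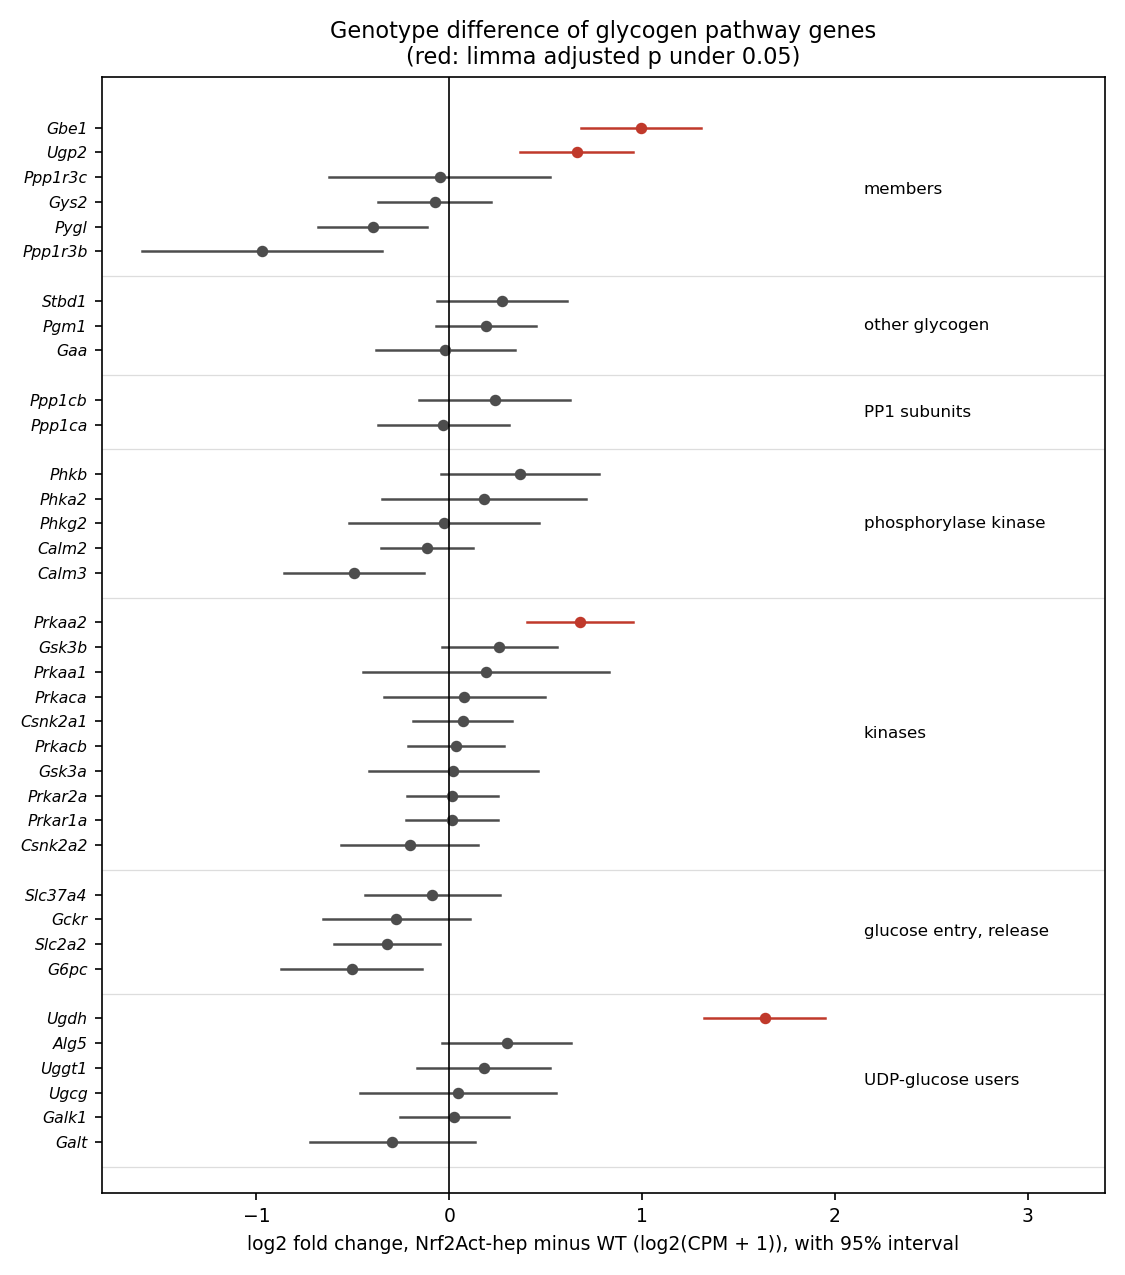
Log2 fold change, Nrf2Act-hep minus WT, with its 95% interval from limma, for the 6 tested members and 30 of the 32 tested genes of the 6 other lists. Red marks an adjusted p under 0.05, which Gbe1 (1.00), Ugp2 (0.66), Prkaa2 (0.68) and Ugdh (1.64) reached.

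Over 3816 named genes at or above 20 CPM on average, those whose level over the 10 libraries was most like that of Gbe1 were Mup17 (Pearson r = 0.96), Cmas (0.95) and Srxn1 (0.93). Srxn1, the sulfiredoxin and a known NRF2 target, went from 45.3 ± 13.5 to 163.0 ± 23.0 CPM, and Cmas, which activates sialic acid, from 51.7 ± 6.43 to 78.1 ± 7.94 CPM (SD, n = 5 each). Mup17 has near-identical copies among which reads may be split, so its values are uncertain. Those most like Ugp2 were Rexo2 (0.95), Zfp385b (0.94) and Slc22a30 (0.93), of which Rexo2, an oligoribonuclease, went from 88.8 ± 21.5 to 135.2 ± 18.8 CPM. The 2 genotypes form separate groups in these values, so each r mostly carries the genotype difference and is given as a description.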

How the data were processed

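Liver RNA was sequenced from the 3′ end as single reads of 75 bases, per the labels' protocols. The authors deposited CPM values, with GRCm38 as the build, per the submitters' processing notes. For the aligner, counter, annotation release and strand setting the sources used here give nothing. Every value (100%) was a whole multiple of its column's step within 0.01 read, so reads were recovered. Symbols came from GENCODE models on GRCm38 (18799 of 18869 identifiers matched). The main test was limma 3.58.1 (trend, robust; R 4.3.3) on log2(CPM + 1) values that edgeR 4.0.16 had scaled by TMM, with genotype and title letter as terms. It covered 8075 genes with at least 4.50 CPM in 5 libraries and 15 reads in all. P-values were Benjamini-Hochberg adjusted over all of them, with a threshold of 0.05. Fold changes on the log2(CPM + 1) scale understate low genes. Alternatives were edgeR's quasi-likelihood test on the recovered reads (374 genes called, against 375), DESeq2 1.42.0, limma-voom and other scalings, filters and pseudocounts. Each library was also left out in turn. The limma, edgeR, limma-voom and DESeq2 fits of genotype, letter and their interaction were also run on simulated data. The permutation test and the fits within each letter were not. The members and lists were chosen with earlier results of these data known. Named genes were the members, the called genes of each list (or its 2 highest by mean where fewer than 2 were called) and the 3 genes most like each called member. Floors of 3 reads cover counting error only. Some genes of the lists are not reported here.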

Additional observations from a re-analysis of the deposited data

How the results depend on the processing

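Gbe1 and Ugp2 were called higher in all 11 other settings over the 10 libraries and in all 10 fits without 1 library. Log2 fold changes ran from 0.88 to 1.13 for Gbe1 and from 0.55 to 0.79 for Ugp2. The fit in the M libraries alone lost Ugp2, as reported above, and the cause was not tested. The count of members called for genotype was 2 to 3 without 1 library. The count of all genes called for genotype was 245 to 345 without 1 library, the lowest with WT replicate 1 left out, and 248 with Nrf2Act-hep replicate 7 left out. On the deposited scale the median log2 fold change over all genes was 0.13 in place of 0.0051, and the split of calls went from 225 higher and 150 lower (60% higher) to 384 and 80 (82.8% higher). On that scale Gbe1 stood at 1.13 and Ugp2 at 0.79. For the letter, 1 member (Ppp1r3c) was called with DESeq2, without TMM, with a pseudocount of 4 and with no filter, and 0 to 1 without 1 library. The letter called 94 genes in all, 47 with no genotype term and 57 to 147 without 1 library. The interaction called 2 genes in all, 15 with DESeq2, 18 with no filter and 1 to 12 without 1 library, and 0 members throughout. The causes of these shifts were not tested. The difference of Gyg, -0.47 CPM, was -0.15 without TMM and ran from -0.87 to 0.014 without 1 library, and none passed. No paired analysis was possible because the replicate numbers run from 1 to 10 and no number is shared between the genotypes. Depth limits Gyg and the other genes near the filter.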
